A study of Homo sapiens with 12 samples.

Results

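Interferon-stimulated effector genes encode the proteins that a cell makes after it has sensed interferon: sensors of foreign RNA, proteins that bind, edit or degrade RNA, the ubiquitin-like protein ISG15 and its enzymes, and restriction factors that act on entry, uncoating or assembly of viruses. The set examined here was a list of 52 symbols. Of these, 46 were found by name on 45 distinct loci of the 38272 loci in the deposited expression table, and all 45 loci passed the filter on low values. Where a symbol occurred on several loci, which held for 15 of them, the locus with the highest mean FPKM (fragment numbers divided by locus length and by library size) over the 12 libraries was used. IFITM1 and IFITM2 share 1 locus. DHX58, OAS2, OASL, MX2, HERC6 and XAF1 matched no locus and are not analysed here.

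RNA was measured in K562, an established line of chronic myeloid leukaemia cells with erythroid and megakaryocytic features, in 4 groups of 3 libraries that the design text calls biological replicates. Cells of the TNFSG and SG groups were transfected with the siRNA Si623 and the GapmeR (an antisense oligonucleotide that recruits RNase H) Gap01, both against a long non-coding RNA, the TNFSG cells then receiving TNF at 20 ng/mL for 6 hours. Cells of the TNF and control groups were transfected with the mock pair SiCt and GapCt, the TNF cells then receiving the same TNF treatment. All cells had therefore been transfected with short nucleic acids, and an untransfected group is not part of the comparisons. The series is named for the long non-coding RNA PPTG1-1:1, which no locus carries as a name, so the knockdown was not checked here. The design asks how TNF, the oligonucleotides and both together alter expression. All results come from a single cell line.

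Type I interferons act through the receptor subunits IFNAR1 and IFNAR2, the kinases JAK1 and TYK2, and the factor ISGF3. ISGF3 binds the interferon-stimulated response element (ISRE) in the promoters of effector genes, while interferon gamma signals to the gamma-activated sequence (GAS) and the factors IRF1 and IRF2 bind ISRE-like elements. TNF acts mainly through NF-kappa B, which binds kappa B sites, and it is known to raise IRF1 and, in several cell types, interferon-stimulated genes.

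Promoter sequence shows what the members share beyond their names. RefSeq promoters (build GRCh38.p14, 250 bases before to 50 after the gene start) matched 37 of the 46 symbols, DDX58 under its present symbol RIGI. Both strands were searched for the ISRE core (GAAA, any 2 bases, GAAA), for the GAS core TTCNNNGAA and for the kappa B consensus, and matches were allowed to overlap. An ISRE core lay in 23 of the 37 member promoters (62.2%), against 996 of 27305 promoters of all genes (3.65%). The GAS core lay in 8 of 37 (21.6%), against 7.88% of all promoters, and the kappa B consensus in 8 of 37 (21.6%), against 10.8%. Among the 15843 promoters of protein-coding genes the shares were 3.17% for the ISRE core, 6.97% for the GAS core and 12.3% for the kappa B consensus. Among promoters of members that passed the TNF tests described below, 7 of 11 held the ISRE core (63.6%) and 3 of 11 the kappa B consensus (27.3%). Among those of members that did not pass, 16 of 26 held the ISRE core (61.5%) and 5 of 26 the kappa B consensus (19.2%). The windows below show 1 ISRE match for each of the 7 TNF-called members that had one, the match in ISG15 as a member that was not called, and a kappa B match of OAS3 and of DDX58. They run 5′ to 3′ along the gene, and capitals mark the match, which reads TTTC, any 2 bases, TTTC where the ISRE lies on the opposite strand.
IFIT3, ISRE, chr10:89327865-89327894, plus strand: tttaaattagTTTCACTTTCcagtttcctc
IFIT5, ISRE, chr10:89414513-89414542, plus strand: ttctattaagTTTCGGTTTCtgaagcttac
OAS3, ISRE, chr12:112938321-112938350, plus strand: agaaagaaacGAAACTGAAAgcagggaatt
IFIH1, ISRE, chr2:162318686-162318715, minus strand: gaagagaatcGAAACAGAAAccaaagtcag
DTX3L, ISRE, chr3:122564322-122564351, plus strand: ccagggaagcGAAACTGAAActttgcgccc
PARP14, ISRE, chr3:122680800-122680829, plus strand: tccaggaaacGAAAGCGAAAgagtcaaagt
EIF2AK2, ISRE, chr2:37156967-37156996, minus strand: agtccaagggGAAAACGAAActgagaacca
ISG15, ISRE, chr1:1013380-1013409, plus strand: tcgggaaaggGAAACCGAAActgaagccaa
OAS3, kappa B, chr12:112938334-112938363, plus strand: actgaaagcaGGGAATTTCCcaagtttggg
DDX58, kappa B, chr9:32526253-32526282, minus strand: tcatttcctcGGAAAATCCCtgctttcccc
In OAS3 the ISRE and kappa B matches lie beside each other, so that their windows overlap. DDX58 held a kappa B match without an ISRE core in this window, ZC3HAV1 held only a GAS core, and IFIT2 had no entry in the promoter table. A match is a description of these letters and not evidence of a bound factor.

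The deposited values are FPKM with no read numbers. Sums over all loci ran from 925955 to 1083476 FPKM per library, and relative depth, estimated from values that step in whole reads, ran from 0.863 in control replicate 3 to 1.32 in TNFSG replicate 1. Among the members, 8 loci could be read back as whole reads, and 5 of these averaged under 10 reads per library. The MX1 locus averaged 7.67 reads, each worth 23.3 FPKM, and the TRIM5 locus averaged 1.08 reads, each worth 57.7 FPKM, so that a high FPKM at these loci stands for few reads, whereas a read at the IFIT2 locus is worth 0.0133 FPKM. FPKM are divided by locus length, so a locus where a read is worth more was counted over a shorter length. A read was worth 3.83 FPKM at OAS1, 0.507 at UBA7 and ISG20 and 0.121 at IFITM3, against 0.019 at USP18. The MX1, TRIM5 and OAS1 loci were thus far shorter than those of IFIT2 and USP18. Their values should not be read as the level of the whole gene. The table used here has no coordinates, so the exact extent of these loci was not checked. Nor was it for UBA7, ISG20 and IFITM3, which also averaged under 10 reads and whose values may not be the level of the gene. The plot of recovered reads shows MX1 and TRIM5 beside OAS1 and USP18. Intervals and tests were computed on log2(FPKM + 1), a scale that understates the change of low genes. Most K562 markers were present: all 10 had a locus, and 8 of their 9 loci reached 1 FPKM in all 12 libraries. HBG1, a globin gene, did so in 7 libraries and ran from 0.481 to 3.30 FPKM. The summed marker level ran from 2082 to 4109 FPKM in TNFSG and 2191 to 5026 in TNF libraries. It ran from 2304 to 4424 FPKM in SG and 2314 to 5297 in control libraries. These sums are mostly globin, and at 8 of the 9 marker loci the log2 change was negative in each TNF comparison. NFE2, an erythroid transcription factor, was lower in both, at 44.8 ± 7.71 FPKM in TNFSG and 100.1 ± 7.13 in SG libraries (log2 change -1.16 (adjusted p = 0.00204)), and at 50.0 ± 6.87 in TNF and 99.1 ± 3.60 in control libraries (-0.98 (adjusted p = 0.00541)); its part in the results was not tested. Of 4 fibroblast markers 3 had a locus, with COL1A2 listed at 0 in control replicate 2, and their sum was 65.2 to 444 FPKM in TNFSG against 21.3 to 45.3 in SG libraries, and 55.1 to 1178 in TNF against 23.9 to 56.3 in control libraries. The highest sums were COL1A2, a collagen gene, which had 406 FPKM in TNFSG replicate 2, 1098 in TNF replicate 1, 127 in TNF replicate 2 and at most 6.39 elsewhere. DCN, a matrix proteoglycan, had 83.2, 34.3 and 57.1 FPKM in TNFSG against 35.8, 17.2 and 28.8 in SG libraries, and 70.1, 31.3 and 51.8 in TNF against 14.3, 22.9 and 54.5 in control libraries. The groups overlapped and DCN did not pass (limma adjusted p = 0.501 and 0.63), and the part of these markers in the results was not tested. Over all libraries the sums were 16.0 to 50.3 FPKM for lymphoid markers (3 of 5 with a locus), 9.36 to 44.6 for myeloid and dendritic markers (2 of 5), 336 to 758 for epithelial markers (4 of 4) and 0 to 16.5 for endothelial markers (1 of 4).

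**Figure D1:**
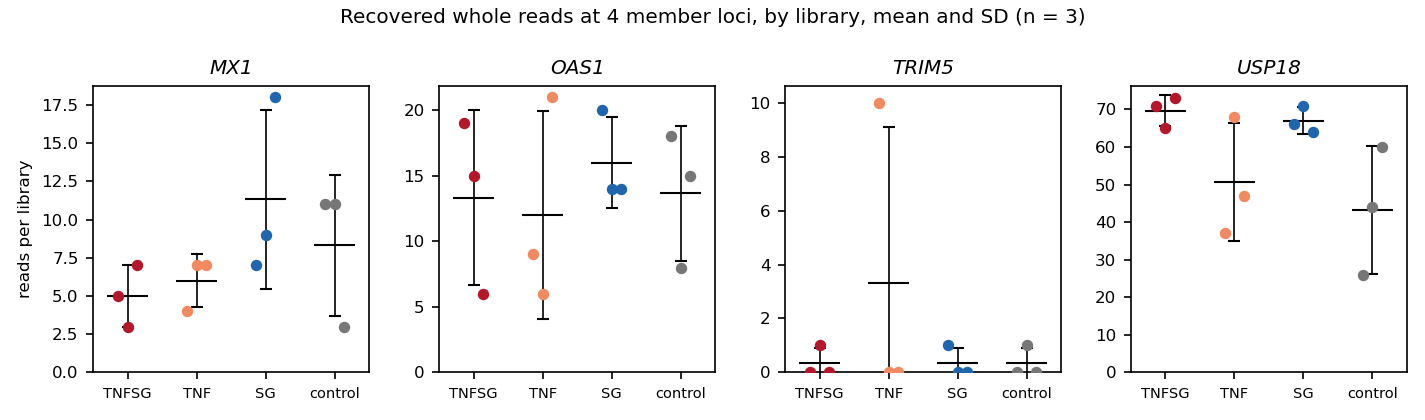
Reads recovered from the FPKM values at 4 of the 8 member loci where they step in whole reads, by library, with a line for the mean and bars for the SD (n = 3), in the order TNFSG, TNF, SG and control. TRIM5 had 10 reads in TNF replicate 1 and at most 1 read in every other library, and MX1 had 3 to 18 reads per library, whereas USP18 had 26 to 73.

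Without TNF many effector genes were at low levels. In control libraries 9 of the 45 loci averaged under 1 FPKM and 23 under 5 FPKM, and over all 12 libraries 14 averaged 20 FPKM or more. The latter include the short loci of MX1, TRIM5 and OAS1. Low levels were common in the whole table, where 24055 to 25071 of 38272 loci reached 1 FPKM in a control library. The share of all tested loci under these averages was not computed, so low levels are not particular to the members. IFIT5, IFIT2 and IFIH1 were the sparsest of the members that responded, at 0.0308, 0.185 and 0.248 FPKM on average in control libraries. RNF213, ADAR, ZC3HAV1 and BST2 were high already, at 101, 50.6, 46.5 and 66.6 FPKM. IFIT2, IFIT5, IFIH1 and IFITM3 reached 1 FPKM in TNF-treated libraries only and passed the filter through these. IFIT5 reached it in the 3 TNFSG libraries alone, so it was tested only because that group was high.

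TNF raised 9 of the 45 member loci against control and lowered none (20%), where 1.18% of the 32866 loci tested were called higher and 0.277% lower (limma, adjusted p under 0.05). In the background of the targeted oligonucleotides, TNFSG against SG, 11 were higher and none lower (24.4%), against 1.37% higher and 0.277% lower among all loci. The comparisons share no library, but both rest on a common estimate of spread from all 12 libraries. In both, 8 members passed, which is 88.9% of the 9 and 72.7% of the 11. The matching overlap over all called loci was not computed, so these shares are not particular to the members. Of the 12 that passed in either, 3 had entered the tests only through libraries with TNF; they are IFIT2, IFIT5 and IFIH1. The median log2 change over the 45 loci was 0.38 in TNF against control and 0.37 in TNFSG against SG, where the median over all loci was -0.02 and -0.03. The log2 change was positive at 35 of 45 member loci in each comparison, against 47% and 46.1% of all loci. All 3 TNF libraries lay above all 3 control libraries at 20 of 45 loci, where 7.59% of all loci did so, and below them at 1, UBA7, where 8% did. All 3 TNFSG libraries lay above all SG libraries at 25 loci (8.13% of all loci) and below them at 2, MX1 and TRIM14 (10%).

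**Figure D2:**
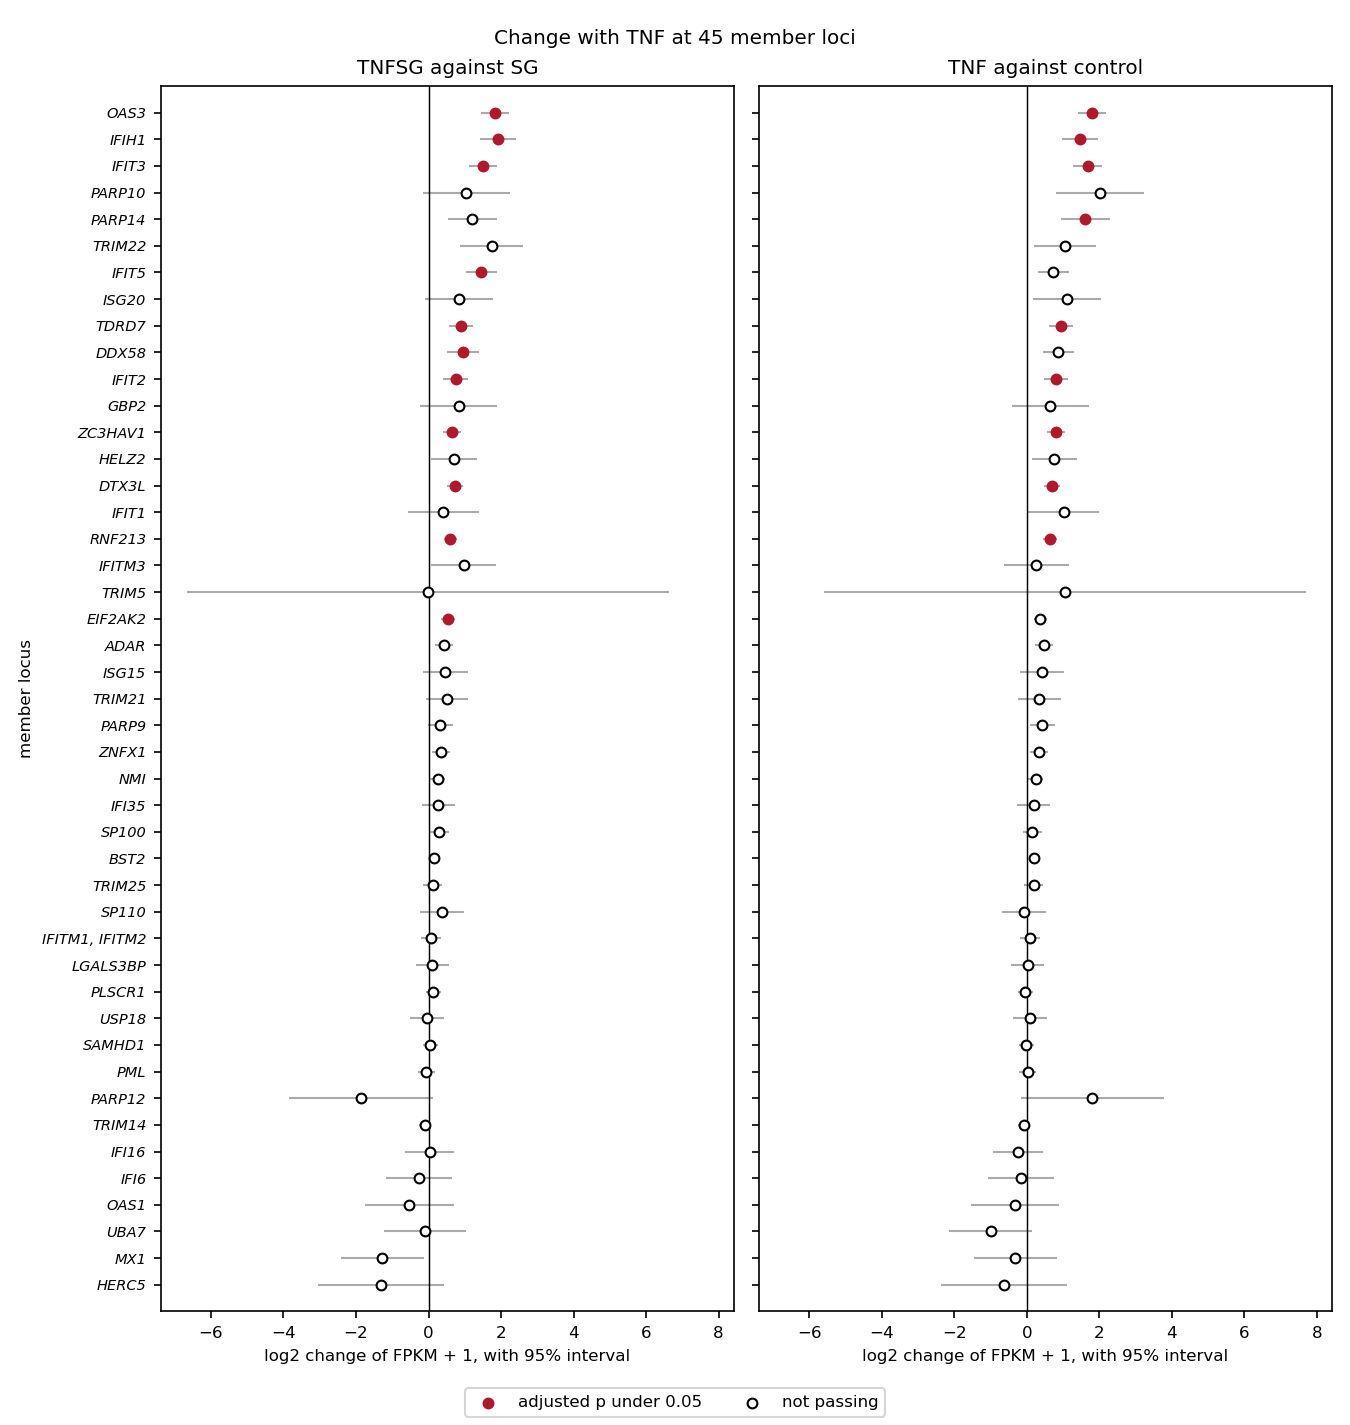
Log2 change of FPKM + 1 with its 95% interval at the 45 member loci, TNFSG against SG on the left and TNF against control on the right, ordered by the mean of both. Filled points have an adjusted p under 0.05: 11 on the left and 9 on the right, all to the right of 0, and the widest interval belongs to TRIM5.

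The sensors of cytosolic RNA were among the members that responded. IFIH1, also named MDA5, recognises long double-stranded RNA. It stood at 3.69, 1.99 and 1.91 FPKM in TNF libraries, against 0.209, 0.375 and 0.159 FPKM in control libraries (log2 change 1.47, SE 0.22, adjusted p = 0.00855). With the targeted oligonucleotides it stood at 6.05, 4.53 and 4.38 FPKM in TNFSG libraries, against 0.443, 0.577 and 0.716 FPKM in SG libraries (log2 change 1.92, SE 0.22, adjusted p = 0.00181). Neither pair of groups overlapped, and every library without TNF was under 1 FPKM, but the TNF against control call was lost in a fit of only those groups (adjusted p = 0.099). DDX58, also named RIG-I, recognises RNA with a 5′ triphosphate. Its values were 4.46, 3.11 and 3.01 FPKM in TNFSG libraries, against 1.45, 1.24 and 1.24 FPKM in SG libraries (log2 change 0.96, SE 0.20, adjusted p = 0.045). In TNF libraries it was at 3.65, 2.94 and 2.53 FPKM, against 1.30, 1.55 and 0.783 FPKM in control libraries, with a log2 change of 0.88 (adjusted p = 0.0707). The groups did not overlap in either comparison, but the TNF against control difference missed the threshold. In an alternative fit with the replicate number as a block it passed (limma adjusted p = 0.033). The DDX58 call was weak: none of the 6 fits that dropped a library of these groups kept it (adjusted p up to 0.165), nor did a fit of only those groups (0.106), and with both DDX58 loci summed the log2 change was 0.38 with an adjusted p of 0.884.

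Of the enzymes that act on double-stranded RNA, EIF2AK2 passed in TNFSG against SG and ADAR in neither TNF comparison. EIF2AK2 encodes PKR, the kinase that halts translation through eIF2 alpha. Its FPKM were 18.1, 17.6 and 17.7 in TNFSG libraries, against 11.7, 12.7 and 11.4 in SG libraries (log2 change 0.54, SE 0.08, adjusted p = 0.00976). They were 14.9, 14.2 and 13.4 in TNF libraries, against 11.6, 10.7 and 9.70 in control libraries, where the log2 change of 0.38 missed the threshold (adjusted p = 0.0633). The groups were apart in both comparisons, and the call in TNFSG against SG was lost without SG replicate 3 or TNFSG replicate 1 (adjusted p up to 0.0523). ADAR, the enzyme that converts adenosine to inosine, averaged 81.8 ± 1.15 FPKM in TNFSG and 60.3 ± 0.387 FPKM in SG libraries (SD, n = 3 each). It averaged 70.7 ± 9.11 FPKM in TNF and 50.6 ± 6.43 FPKM in control libraries. Its log2 changes of 0.43 and 0.48 did not pass (limma adjusted p = 0.107 and 0.0783). With the replicate number as a block, EIF2AK2 and ADAR passed in TNF against control (limma adjusted p = 0.0317 and 0.0385).

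The IFIT genes, which lie side by side on chromosome 10 and encode proteins that bind viral RNA ends, gave 2 calls at 4 loci in TNF against control and 3 in TNFSG against SG. IFIT3 was at 8.20, 7.30 and 6.45 FPKM in TNF libraries, against 2.17, 1.10 and 1.60 FPKM in control libraries (log2 change 1.68, SE 0.18, adjusted p = 0.00111). In TNFSG libraries IFIT3 was at 10.5, 8.01 and 7.74 FPKM, against 2.60, 2.39 and 2.30 FPKM in SG libraries (log2 change 1.5, SE 0.18, adjusted p = 0.00217). The groups were far apart both times, and the calls held with every library left out in turn. IFIT2, the partner that forms complexes with IFIT3, had 1.32, 0.917 and 0.980 FPKM in TNF libraries, against 0.328, 0.182 and 0.0462 FPKM in control libraries (log2 change 0.81, SE 0.15, adjusted p = 0.0337). It had 1.42, 1.5 and 1.55 FPKM in TNFSG libraries, against 0.485, 0.453 and 0.488 FPKM in SG libraries (log2 change 0.75, SE 0.15, adjusted p = 0.0439). The IFIT2 groups did not overlap, yet both calls were fragile, since leaving out 1 library lost them in 5 of 6 and in 6 of 6 cases (adjusted p up to 0.132 and 0.138); the first call remained only without control replicate 1, and the second was also lost in a fit of only its groups (0.0955). IFIT5, which binds RNA with a 5′ phosphate, was almost absent without TNF. It had 2.67, 1.25 and 1.78 FPKM in TNFSG libraries, against 0.0838, 0.0269 and 0 FPKM in SG libraries (log2 change 1.46, SE 0.19, adjusted p = 0.00354). It had 0.701, 0.833 and 0.620 FPKM in TNF libraries, against 0.0447, 0.0478 and 0 FPKM in control libraries, a log2 change of 0.74 (adjusted p = 0.117). Every TNF-treated library was above every untreated one, but the call was lost in a fit of only the groups compared (adjusted p = 0.0626), and the pseudocount of 1 weighs heavily at such levels. IFIT5 passed the filter through its TNFSG libraries alone, and it was not tested when any of these was left out. IFIT1, which binds capped RNA lacking ribose methylation, averaged 3.11 ± 0.293 FPKM in TNFSG, 3.34 ± 0.130 in TNF, 2.52 ± 2.25 in SG and 1.33 ± 1.24 in control libraries. Its log2 changes were 0.41 (adjusted p = 0.818) in TNFSG against SG and 1.02 (adjusted p = 0.421) in TNF against control, and a single SG library at 5.09 FPKM lay above all TNFSG libraries.

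Of the oligoadenylate synthetases, which make the messenger that activates RNase L, OAS3 had the lowest adjusted p of all members in both TNF comparisons. It was at 7.21, 4.28 and 5.84 FPKM in TNF libraries, against 0.873, 0.911 and 0.931 FPKM in control libraries (log2 change 1.81, SE 0.17, adjusted p = 0.000584). In TNFSG libraries OAS3 was at 10.5, 8.16 and 8.95 FPKM, against 1.61, 1.99 and 2.03 FPKM in SG libraries (log2 change 1.82, SE 0.17, adjusted p = 0.000534). The groups were far apart, and the call held in both comparisons under every alternative tried. Its neighbour OAS1 on chromosome 12 had 19, 15 and 6 recovered reads in TNFSG libraries, against 20, 14 and 14 reads in SG libraries, and 9, 6 and 21 reads in TNF libraries, against 18, 8 and 15 reads in control libraries. The OAS1 groups overlapped, with log2 changes of -0.52 (adjusted p = 0.808) and -0.32 (adjusted p = 0.902). A read at this short locus is worth 3.83 FPKM, so these values should not be read as the level or the response of the whole OAS1 gene.

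**Figure D3:**
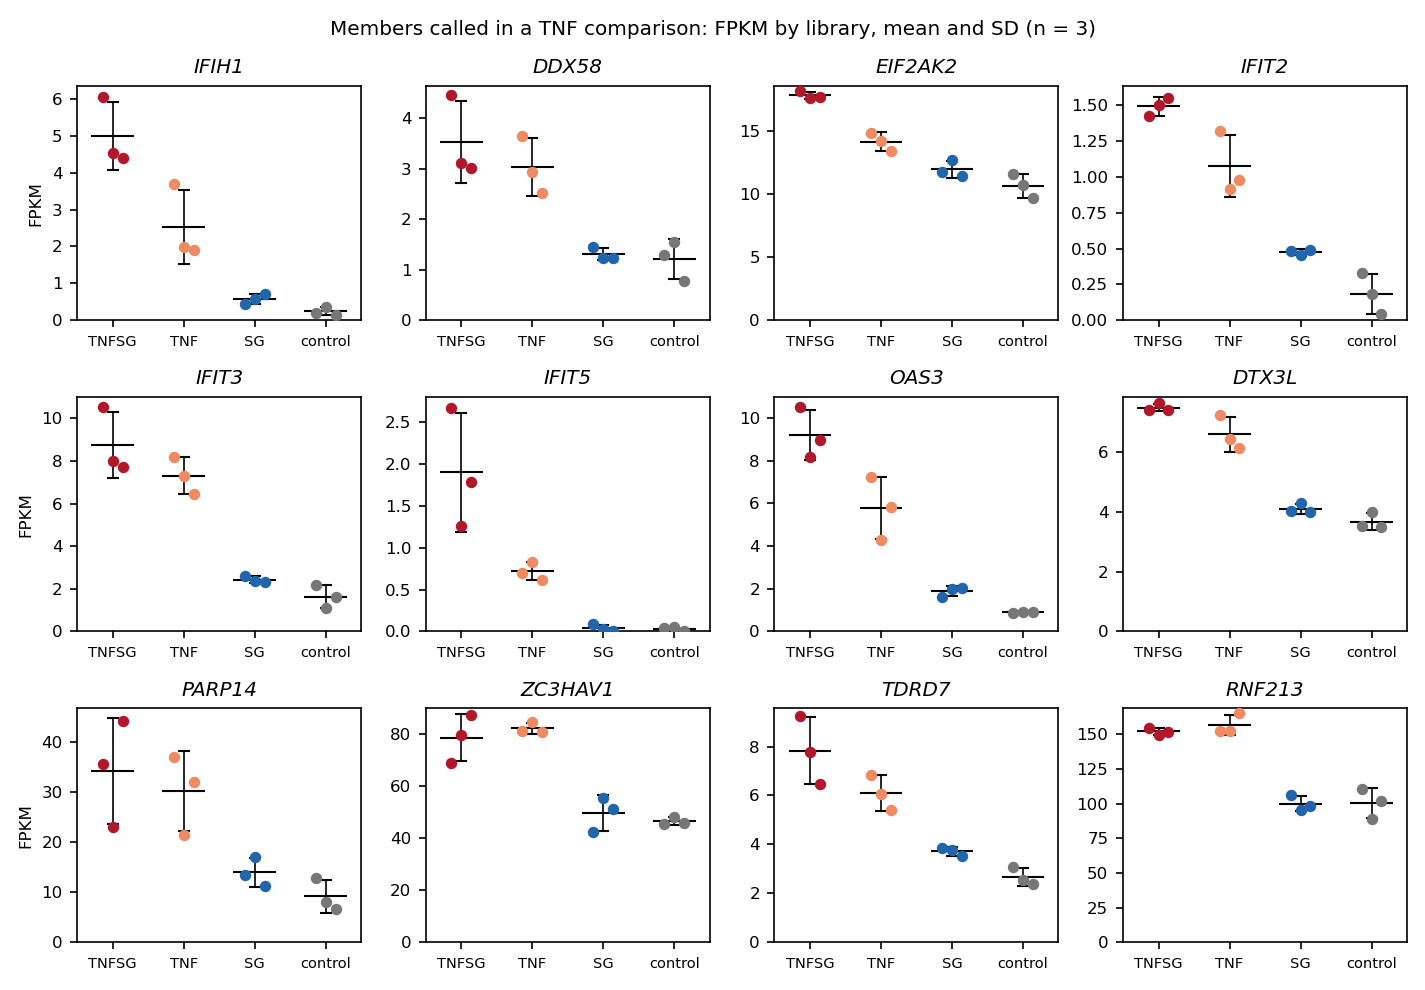
FPKM by library at the 12 members called in at least 1 TNF comparison, with points for libraries, a line for the mean and bars for the SD (n = 3), in the order TNFSG, TNF, SG and control. At each of the 12, which were picked by their TNF calls, every TNF-treated library lies above every untreated library. RNF213 has the highest axis, with 149.5 to 165 FPKM in TNF-treated libraries.

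Among the ADP-ribosyltransferases and their partner, DTX3L and PARP14 passed. DTX3L is a ubiquitin ligase that works as a complex with PARP9. Its values were 7.23, 6.41 and 6.11 FPKM in TNF libraries, against 3.52, 4.00 and 3.49 FPKM in control libraries (log2 change 0.70, SE 0.10, adjusted p = 0.00686). They were 7.40, 7.61 and 7.40 FPKM in TNFSG libraries, against 4.04, 4.28 and 3.97 FPKM in SG libraries (log2 change 0.73, SE 0.10, adjusted p = 0.00501). Neither pair of groups overlapped, but the TNF against control call was lost in a fit of only those groups (adjusted p = 0.127) and with both DTX3L loci summed (0.0564). PARP9 is the neighbour on chromosome 3, with an annotated extent that overlaps that of DTX3L, and reads of overlapping genes cannot be told apart because no strand setting is given. PARP9 averaged 5.06 FPKM in TNFSG and 3.85 FPKM in SG libraries, and 3.89 FPKM in TNF and 2.60 FPKM in control libraries, and did not pass (limma adjusted p = 0.48 and 0.29). PARP14, a mono-ADP-ribosyltransferase, had 37.0, 21.4 and 32.1 FPKM in TNF libraries, against 12.9, 8.09 and 6.67 FPKM in control libraries (log2 change 1.62, SE 0.30, adjusted p = 0.0326). It had 35.6, 23.1 and 44.1 FPKM in TNFSG libraries, against 13.5, 17.1 and 11.3 FPKM in SG libraries, a log2 change of 1.21 (adjusted p = 0.108). The PARP14 groups did not overlap in either comparison, but libraries of a group varied widely, and the call was lost without control replicate 2 or 3 or TNF replicate 1 or 3 (adjusted p up to 0.131) and in a fit of only those groups (0.12). PARP10, a related enzyme, averaged 6.07 ± 1.95 FPKM in TNF and 0.739 ± 0.549 FPKM in control libraries, with a log2 change of 2.03 (adjusted p = 0.136).

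PARP12 had the second highest mean of the members and varied widely between libraries of a group. Its values could not be read back as whole reads, so the number of reads behind them is not known. Its FPKM were 48.2, 168 and 22.4 in TNFSG libraries, against 171, 165 and 326 in SG libraries. They were 141, 224 and 285 in TNF libraries, against 198, 17.8 and 55.6 in control libraries. Log2 changes were -1.86 (adjusted p = 0.475) and 1.81 (adjusted p = 0.501), of opposite sign, and neither passed.

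Antiviral proteins of other kinds supplied the remaining calls. ZC3HAV1 encodes ZAP, which binds viral RNA rich in CpG. Its FPKM were 81.0, 84.5 and 80.8 in TNF libraries, against 45.6, 48.2 and 45.7 in control libraries (log2 change 0.81, SE 0.11, adjusted p = 0.00493). They were 68.9, 79.5 and 87.0 in TNFSG libraries, against 42.2, 55.4 and 51.3 in SG libraries (log2 change 0.65, SE 0.11, adjusted p = 0.0157). The groups did not overlap, and the call in TNFSG against SG was lost without TNFSG replicate 2 or 3 (adjusted p up to 0.0707) and in a fit of only those groups (0.129). TDRD7, a Tudor-domain protein, had 6.84, 6.04 and 5.40 FPKM in TNF libraries, against 3.09, 2.54 and 2.38 FPKM in control libraries (log2 change 0.95, SE 0.14, adjusted p = 0.0101). It had 9.23, 7.78 and 6.48 FPKM in TNFSG libraries, against 3.87, 3.76 and 3.52 FPKM in SG libraries (log2 change 0.89, SE 0.14, adjusted p = 0.0142). The groups were apart, but both calls were close to the threshold: the first was lost without control replicate 2 or 3 (adjusted p up to 0.0515), the second without SG replicate 2 or 3 or TNFSG replicate 1 or 2 (up to 0.0646), and fits of only the groups compared lost both (adjusted p = 0.0942 and 0.0781). BST2, or tetherin, which holds budding virions at the cell surface, averaged 72.6 FPKM in TNFSG, 77.0 in TNF, 65.5 in SG and 66.6 in control libraries. Neither BST2 nor the helicase-like ZNFX1, the dNTP hydrolase SAMHD1, the scramblase PLSCR1, the secreted LGALS3BP, the exonuclease ISG20 or the coactivator HELZ2 passed in either TNF comparison.

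RNF213, a giant ubiquitin ligase with AAA+ domains, was the most abundant of the members that responded. It stood at 152, 152 and 165 FPKM in TNF libraries, against 110.4, 89.0 and 102 FPKM in control libraries (log2 change 0.64, SE 0.08, adjusted p = 0.00386). In TNFSG libraries it stood at 155, 149.5 and 152 FPKM, against 106, 95.3 and 98.3 FPKM in SG libraries (log2 change 0.60, SE 0.08, adjusted p = 0.00518). The groups did not overlap, and the calls held with each library left out, but the TNF against control call was lost in a fit of only those groups (adjusted p = 0.0826). MX1, the dynamin-like GTPase that is among the best known interferon-stimulated genes, rested on few reads at a short locus of unchecked extent. The MX1 locus had 5, 3 and 7 recovered reads in TNFSG libraries, against 7, 9 and 18 in SG libraries, which is 88.2, 76.5 and 169.6 FPKM against 186, 231 and 385 FPKM. It had 4, 7 and 7 reads in TNF libraries, against 11, 11 and 3 in control libraries, which is 83.2, 163 and 179 FPKM against 234, 249.9 and 81.0 FPKM. Log2 changes of -1.27 (adjusted p = 0.362) and -0.32 (adjusted p = 0.898) did not pass. The TNFSG libraries lay below all SG libraries and the TNF libraries overlapped the control libraries. GBP2, a guanylate-binding protein, averaged 5.84 ± 0.534 FPKM in TNFSG, 4.08 ± 3.62 in TNF, 2.85 ± 0.175 in SG and 2.09 ± 1.80 in control libraries and did not pass.

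None of the 4 loci of the ISG15 system passed. ISG15 itself, the ubiquitin-like modifier, was at 23.3, 17.2 and 16.8 FPKM in TNFSG libraries, against 16.9, 12.2 and 11.8 FPKM in SG libraries, and at 27.4, 15.4 and 14.6 FPKM in TNF libraries, against 18.3, 10.4 and 12.6 FPKM in control libraries. Its groups overlapped, with log2 changes of 0.46 (adjusted p = 0.601) and 0.43 (adjusted p = 0.661) and 95% intervals of -0.15 to 1.08 and -0.19 to 1.04. Replicate 1 was the highest library of ISG15 in every group, as it also was for IFIT3, TDRD7, LGALS3BP and the IFITM1 and IFITM2 locus. That pattern was found at 5 of 45 member loci, against 5.11% of all loci. UBA7, the activating enzyme of ISG15, rested on 3.08 reads per library, HERC5, its ligase, averaged 1.92 FPKM in TNFSG, 2.69 in TNF, 9.02 in SG and 4.69 in control libraries, and USP18, its deconjugating enzyme, averaged 1.27, 0.967, 1.34 and 0.862 FPKM in the same order.

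The IFITM and IFI loci, the TRIM loci and the nuclear body loci gave no call in any comparison. IFITM proteins block fusion of viruses with membranes. The shared locus of IFITM1 and IFITM2 was at 139, 131 and 112 FPKM in TNFSG libraries, against 135, 118 and 113 FPKM in SG libraries, and at 162, 138 and 125 FPKM in TNF libraries, against 146, 131 and 119.6 FPKM in control libraries. These groups overlapped closely, with a log2 change of 0.06 (95% interval -0.22 to 0.34) and of 0.10 (-0.18 to 0.38). IFITM3 averaged 6.08 reads per library, and IFI6, IFI16, IFI35 and NMI did not pass, NMI being the most abundant of them at 48.3 FPKM in TNFSG, 44.1 in TNF, 40.3 in SG and 37.1 in control libraries. Among TRIM ubiquitin ligases, TRIM22 had the highest log2 change in TNFSG against SG, 1.74, which missed the threshold (adjusted p = 0.0639), at 5.57, 12.1 and 9.94 FPKM in TNFSG libraries, against 1.28, 2.39 and 2.25 FPKM in SG libraries. TRIM25, which acts on RIG-I, and TRIM14 had log2 changes of 0.12 and -0.09 in that comparison, TRIM21 was at 0.51, and TRIM5 rested on 1.08 reads per library. PML and SP100, scaffold proteins of nuclear bodies, had log2 changes of -0.06 and 0.30 in TNFSG against SG and 0.03 and 0.15 in TNF against control, and SP110 had 0.37 and -0.07.

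Upstream of the effectors, the table showed a partial set of changes with TNF. Among all loci tested, 1.18% were called higher in TNF against control and 1.37% in TNFSG against SG. None of 9 interferon ligand symbols matched a locus, and these are not analysed here. Of 8 loci of receptors and JAK kinases, IFNGR2, a subunit of the receptor for interferon gamma, was the only one that passed, at 94.1, 96.9 and 90.4 FPKM in TNF libraries, against 27.2, 27.7 and 22.9 FPKM in control libraries (log2 change 1.82, SE 0.08, adjusted p = 3.45e-06). It was at 97.1, 91.6 and 95.3 FPKM in TNFSG libraries, against 26.6, 26.0 and 28.6 FPKM in SG libraries (log2 change 1.77, SE 0.08, adjusted p = 3.93e-06). JAK1 and TYK2 had positive values that missed the threshold (limma adjusted p = 0.0673 and 0.136 in TNF against control). Of 6 loci of ISGF3 and IRF factors, IRF1, an activator, and IRF2, its antagonist at many promoters, rose in both comparisons. IRF1 had log2 changes of 1.58 (adjusted p = 0.000248) in TNF against control and 1.64 (adjusted p = 0.000195) in TNFSG against SG, and IRF2 had 1.17 (adjusted p = 0.000241) and 0.97 (adjusted p = 0.000775). STAT2, a subunit of ISGF3, had 0.50 (adjusted p = 0.681) in TNFSG against SG and 1.06 (adjusted p = 0.254) in TNF against control.

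Of 9 loci of sensing adaptors and kinases, 3 rose in both comparisons. IKBKE, a kinase of the IRF3 pathway that NF-kappa B also induces, had log2 changes of 2.8 (adjusted p = 6.6e-06) in TNF against control and 2.64 (adjusted p = 8.67e-06) in TNFSG against SG. TICAM1, the adaptor of TLR3, had 1.09 (adjusted p = 0.0025) and 1.11 (adjusted p = 0.00215), and TRAF3, a ubiquitin ligase of the same route, had 0.93 (adjusted p = 0.00133) and 0.82 (adjusted p = 0.0027). Of 7 feedback loci SOCS1, an inhibitor of JAK kinases, was the only one that passed, with 0.91 (adjusted p = 0.000477) and 0.70 (adjusted p = 0.00242). Over all loci 1.18% were called higher in TNF against control and 1.37% in TNFSG against SG, with median log2 changes of -0.02 and -0.03. Of 23 further interferon-stimulated loci tested, 7 rose in TNF against control and 5 in TNFSG against SG, with median log2 changes of 0.51 and 0.48. The chemokine CXCL10 had the largest of these, 4.66 (adjusted p = 6.38e-06) and 4.62 (adjusted p = 5.96e-06), followed by CXCL11 and by TAP1, the peptide transporter of antigen presentation, at 2.55 (adjusted p = 0.000259) and 2.65 (adjusted p = 0.000196); IRF1, which is in both lists, and the death ligand TNFSF10 also passed in both, and APOL1 and UBE2L6 in TNF against control. In that comparison CXCL11 was lost without control replicate 2 or 3 or TNF replicate 1 (adjusted p up to 0.0527) and APOL1 without control replicate 3 or TNF replicate 2 or 3 (up to 0.0746). Fits of only the groups compared lost TICAM1, TRAF3, TNFSF10, UBE2L6 and APOL1 in TNF against control (adjusted p = 0.0551, 0.0584, 0.0737, 0.207 and 0.157) and CXCL11 and TNFSF10 in TNFSG against SG (0.0681 and 0.0572). For scale, all 7 listed NF-kappa B target genes were called in both comparisons, with median log2 changes of 3.56 and 3.48, against 0.38 and 0.37 for the effector genes. Both lists were chosen with earlier results of these data known, so these medians describe scale and are no check of the TNF treatment.

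**Figure D4:**
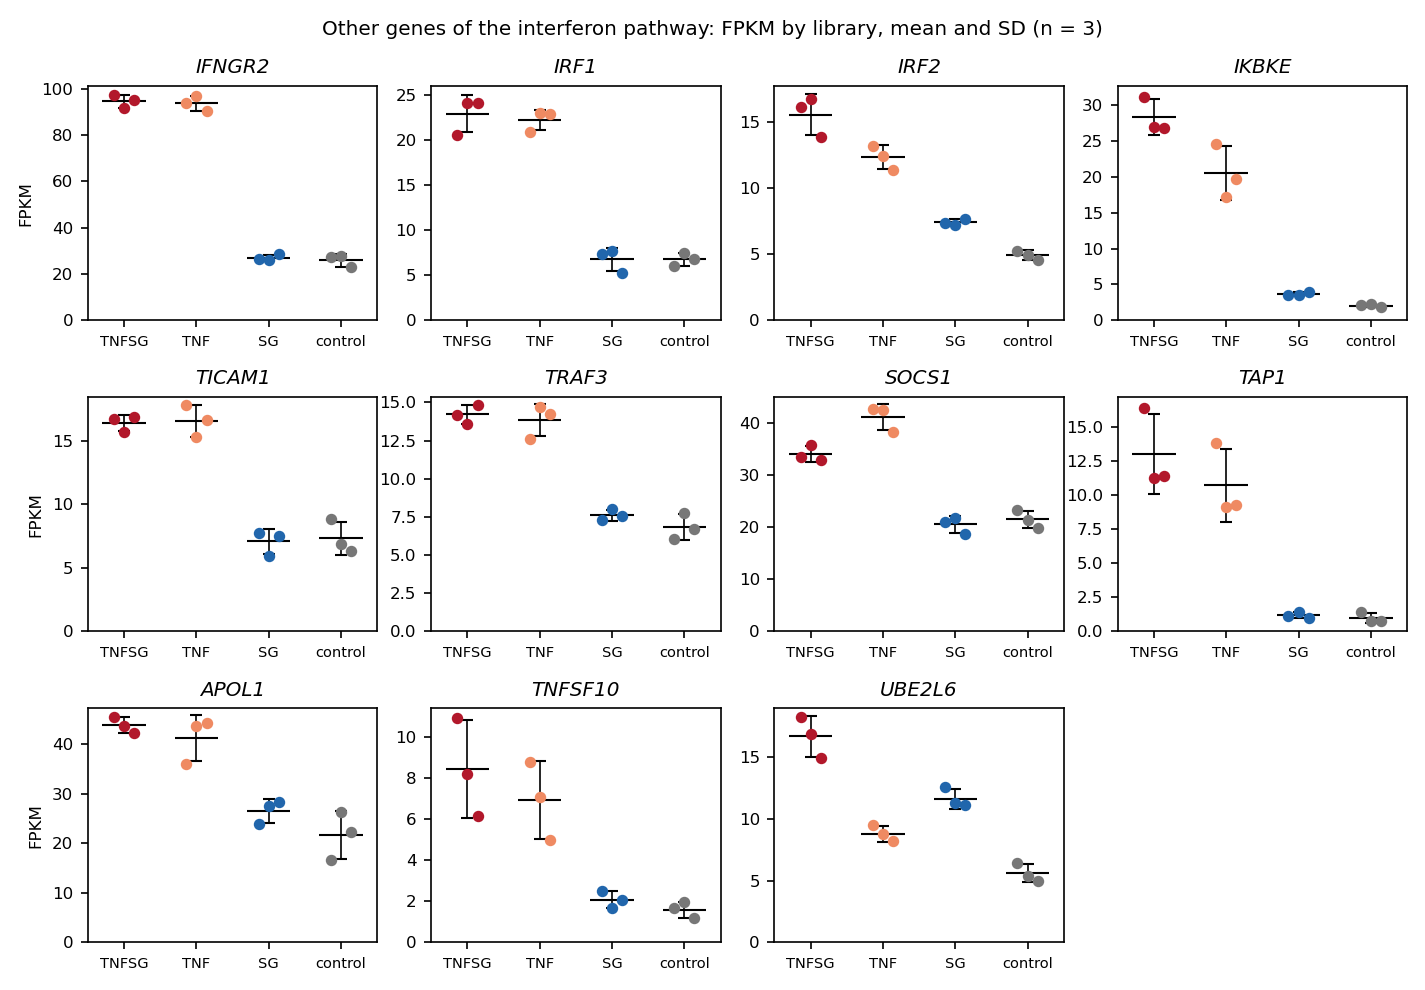
FPKM by library at 11 further genes of the interferon pathway, with points for libraries, a line for the mean and bars for the SD (n = 3), in the order TNFSG, TNF, SG and control. IFNGR2, IRF1, IKBKE and TAP1 separate by TNF, and UBE2L6 separates by both treatments.

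Whether the targeted oligonucleotides altered the response to TNF was tested as the difference between the 2 TNF effects. No member passed (limma, adjusted p under 0.05), where 0.00913% of all loci did (0.00304% higher and 0.00609% lower), and at an unadjusted p under 0.05 there were 2, where 3.75% of all loci had such a p. These were IFIT5, with an interaction of 0.72 on the log2 scale (95% interval 0.13 to 1.31), and PARP12, with -3.67. IFIT5 was in the tests only through its high TNFSG libraries, so its interaction is no independent evidence. Among the 12 called members the interval of the interaction included 0 for 11, and the bounds ran from -1.38 at PARP14 to 1.31 at IFIT5. For RNF213 the interval was -0.30 to 0.23, for EIF2AK2 -0.10 to 0.42 and for DTX3L -0.28 to 0.35. For OAS3 it was -0.53 to 0.57 and for IFIH1 -0.24 to 1.14. The members that passed in only 1 of the TNF comparisons, which were IFIT5, DDX58, EIF2AK2 and PARP14, were thus not shown to differ between them.

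The targeted oligonucleotides alone gave no call among the members. In SG against control 0 of 45 loci passed (limma), where 0.17% of all loci did (0.0548% higher and 0.116% lower), and at an unadjusted p under 0.05 there were 8 higher and 0 lower, where 9.86% of all loci had such a p in either direction. In TNFSG against TNF 0 of 45 passed, where 0.128% of all loci did (0.0578% higher and 0.07% lower), with 10 higher and 0 lower at an unadjusted p under 0.05, against 9.11% of all loci. The median log2 change was 0.18 in SG against control and 0.20 in TNFSG against TNF, where the median over all loci was 0.08 in both. Positive values were found at 38 and 33 of 45 loci, against 61.2% and 61.1% of all loci. With libraries rescaled by median ratios these became 34 and 31, against 52.5% and 53.4%. All 3 SG libraries lay above all control libraries at 12 loci (10.3% of all loci) and below them at none (4.62%), and all 3 TNFSG libraries lay above all TNF libraries at 13 (10%) and below them at 2, ISG20 and BST2 (4.73%).

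The members with the smallest p in these comparisons were OAS3, at 0.59 on the log2 scale in SG against control (adjusted p = 0.291) and 0.61 in TNFSG against TNF (adjusted p = 0.306), and, in TNFSG against TNF alone, IFIT5 at 0.73 (adjusted p = 0.258), EIF2AK2 at 0.31 (adjusted p = 0.263) and IFIH1 at 0.79 (adjusted p = 0.291). The OAS3 values given above run in the order TNFSG, TNF, SG and control with no overlap between any neighbouring groups. IFI35, a partner of NMI, and LGALS3BP had an unadjusted p under 0.05 in both comparisons. IFI35 averaged 6.00 ± 0.872 FPKM in TNFSG and 3.86 ± 0.981 FPKM in TNF libraries, and 4.79 ± 0.265 FPKM in SG and 3.27 ± 0.967 FPKM in control libraries. LGALS3BP averaged 14.2 ± 1.15 FPKM in TNFSG and 9.47 ± 2.52 FPKM in TNF libraries, and 13.2 ± 1.05 FPKM in SG and 9.28 ± 2.68 FPKM in control libraries. None of these differences passed after adjustment over all loci, and IFIT5 was tested only because its TNFSG libraries reached 1 FPKM.

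**Figure D5:**
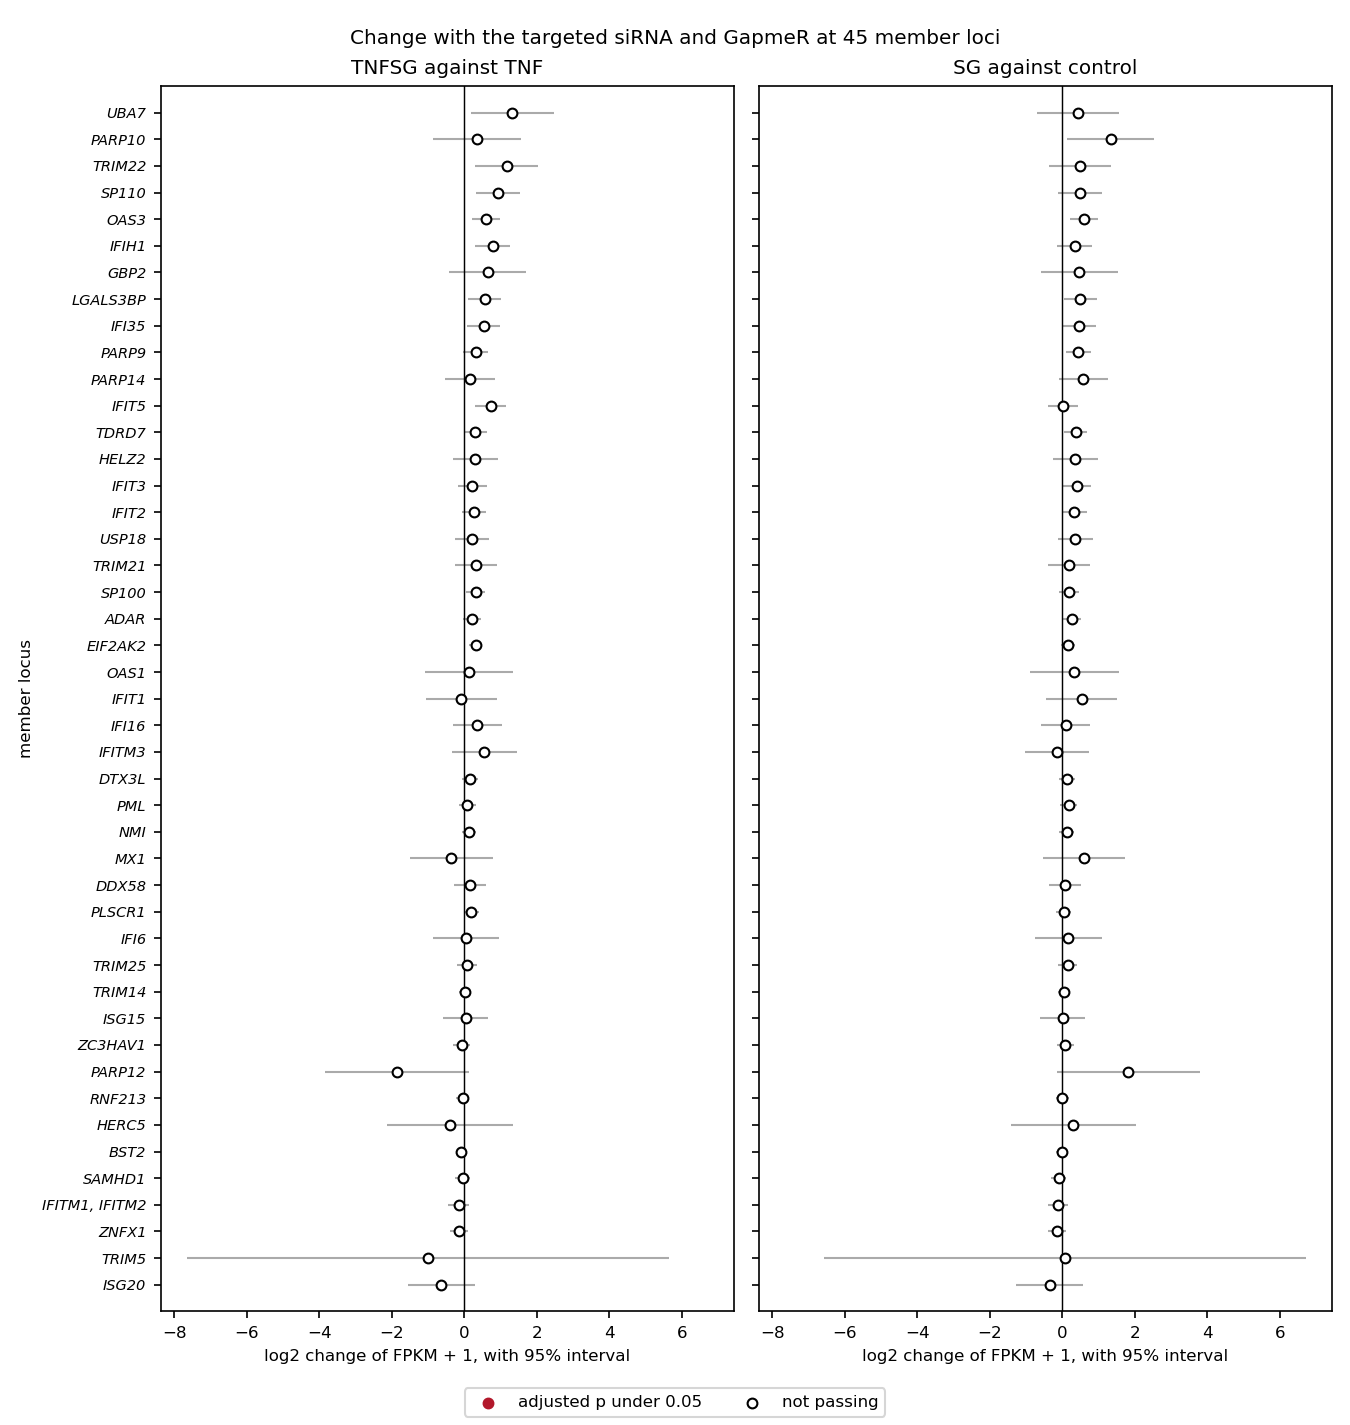
Log2 change of FPKM + 1 with its 95% interval at the 45 member loci, TNFSG against TNF on the left and SG against control on the right, ordered by the mean of both. Open points did not pass, which holds for all 45 loci on both sides, and most of the points lie to the right of 0.

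Among the listed genes of the pathway a single locus passed with the targeted oligonucleotides. Over all loci 0.0578% were called higher in TNFSG against TNF and 0.0548% in SG against control. UBE2L6 encodes the conjugating enzyme that carries ISG15 from UBA7 to its ligase. It was at 18.2, 16.8 and 14.9 FPKM in TNFSG libraries, against 9.47, 8.73 and 8.20 FPKM in TNF libraries (log2 change 0.85, SE 0.11, adjusted p = 0.0335). It was at 12.6, 11.3 and 11.1 FPKM in SG libraries, against 6.40, 5.41 and 5.0 FPKM in control libraries (log2 change 0.94, SE 0.11, adjusted p = 0.019). All TNFSG libraries were above all TNF libraries, and all SG libraries were above all control and all TNF libraries. These calls were fragile: dropping 1 library lost the SG against control call in 5 of 6 fits (all but the one without control replicate 1, adjusted p up to 0.107) and the TNFSG against TNF call in 6 of 6 (up to 0.166), and fits of only the groups compared lost both (adjusted p = 0.208 and 0.205). TNF raised it in TNF against control (log2 change 0.57, SE 0.11, adjusted p = 0.0367), a call that likewise remained only without control replicate 1 (otherwise adjusted p up to 0.14), and in TNFSG against SG its log2 change of 0.48 missed the threshold (adjusted p = 0.0776). The interaction was -0.09 with a 95% interval of -0.44 to 0.26, and ISG15, the protein it conjugates, did not pass in any comparison.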

How the data were processed

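RNA-seq of 12 K562 libraries, 3 in each of 4 groups, was analysed from the table of FPKM values that the authors deposited. Sequencing gave single reads of 50 bases, per the labels' protocols. Per the submitters' processing notes, Bowtie2 2.2.9, TopHat2 2.0.14, Cufflinks and build hg38 were used. No source used here gives the Cufflinks version, the annotation or the strand setting.

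The 32866 loci that reached 1 FPKM in 3 or more of the 12 libraries were tested. Their values, as log2(FPKM + 1), went into a limma model (limma 3.58.1, R 4.3.3) with 1 mean per group and a trended prior, and tests were two-sided. P-values were adjusted by Benjamini-Hochberg over all loci tested, and an adjusted p under 0.05 was called. The 5 comparisons were both TNF effects, both oligonucleotide effects and their interaction. Comparisons with a common group share its libraries. The fit was run on simulated normal noise with no structure between replicates and with changes placed only above the lowest levels. That run does not check the fit at low levels or with shared structure. Whole reads were recovered at 22451 of 37506 loci (59.9%, tolerance 0.03), against 217 with decoy depths; total depth is unknown, and no count test was run. Where reads are given, they carry counting error.

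The members, the pathway lists and the markers were chosen with earlier results of these data known, so the lists are not independent evidence. Values in every library are given for members called in any comparison and for the 3 of highest mean FPKM; ISG15 and other genes given in full were added after their values were seen. The design text calls the samples biological replicates without naming separate cultures, so p-values measure the spread between these libraries. Alternatives covered the pseudocount, the filter, the scaling, the choice among loci, the libraries in the fit, a replicate block and each library left out. Promoters came from RefSeq (GRCh38.p14) and were searched in Python 3.11.15.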

Additional observations from a re-analysis of the deposited data

How the results depend on the processing

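The number of members called with TNF kept its direction under all alternatives run, with none called lower. It stayed within 1.5 times the reported count except as follows. In TNF against control, fitting only the groups compared left 3 of 39 loci tested; IFIT2 was not tested there, and IFIH1, DTX3L, PARP14, TDRD7 and RNF213 had the same log2 change as before. In TNFSG against SG, the same fit left 7 of 43, with IFIT2, IFIT5, DDX58, ZC3HAV1 and TDRD7 tested and lost and ADAR called in addition. A filter at 5 FPKM left 7 of 31 there, IFIT2, IFIT5, IFIH1 and DDX58 not being tested. With 1 library left out in turn, the counts ranged from 6 to 10 in TNF against control and from 6 to 9 in TNFSG against SG, where they were 7 without SG replicate 3, 6 without TNFSG replicate 1 or 2 and 7 without TNFSG replicate 3. The counts for SG against control, TNFSG against TNF and the interaction were 0 in all fits with a library left out. With the replicate number as a block, 12 members were called in TNF against control (DDX58, EIF2AK2 and ADAR in addition) and 11 in TNFSG against SG, with 0 in the others, while calls over all loci were 831 against 478 without the block and 843 against 540. The sample titles give libraries of the same number a common letter (A, B or C), and no label says what the letter stands for. Correlations of deviations from the group means ran from -0.049 to 0.142 between same-number libraries, and 5 of 12 libraries correlated best with their own number. Whether the letters pair the libraries was not settled, and the reported fit has no block. HBZ, a globin gene, kept the order of the replicates in every group. It had 295, 842 and 1160 FPKM in control and 308, 819 and 1187 in TNF libraries. In SG libraries it had 299, 483 and 758 FPKM, and in TNFSG libraries 268, 473 and 791. As a hint of shared structure, replicate 1 was highest in all 4 groups at 5.11% of loci and lowest at 5.23%. Fitting only the groups compared gave 201 and 323 calls over all loci in the TNF comparisons, and 12 and 2 in SG against control and TNFSG against TNF, where 56 and 42 were called. The filter at 5 FPKM gave 115 and 97 there, and rescaling gave 78 in TNFSG against TNF. Over the alternatives for single members and called pathway genes, 4152 values kept their side of the threshold, 15 passed in addition and 78 were lost, and no called value changed sign. With the block UBE2L6 (adjusted p = 0.00928) and APOL1 (0.0274) also passed in TNFSG against SG. The causes of these differences were not tested. Low levels limit IFIT2, IFIT5, IFIH1 and IFITM3, few reads limit MX1, TRIM5, ISG20, UBA7 and IFITM3, and a short locus limits MX1, TRIM5 and OAS1.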
